A study of Mus musculus with 54 samples.

Results

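The genes of GABA and glycine receptors and of their transport were followed across 3 brain regions of mice with and without a gene-trap allele of Mbd5. The set held 27 genes of the 47069 in the count table. They were chosen by function and not by a measured value, though earlier results of these data were known at the time. It comprised 14 GABA-A receptor subunits, 2 GABA-B receptor subunits, 4 glycine receptor subunits, 2 postsynaptic scaffold proteins and 5 genes of transport and breakdown. Cortex, striatum and cerebellum were taken from 18 mice at 8 weeks of age on a C57BL/6 background, which gave 54 libraries of polyA RNA, 1 per mouse and region. The Mbd5+/GT group held 10 mice, 5 females and 5 males, with 1 copy of Mbd5 carrying an insertion of the gene-trap vector pU-21B in the second intron. The sample labels call this genotype a heterozygous deletion, whereas the treatment protocol describes a hypomorphic insertion from 1 embryonic stem cell line. The WT group held 8 littermates, 5 females and 3 males. The mice came from 3 litters, and litter 2 had 1 WT mouse beside 4 Mbd5+/GT mice.

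GABA is the main inhibitory transmitter of the forebrain and cerebellum, and glycine shares that role in the brainstem and spinal cord. GABA-A and glycine receptors are chloride channels built from 5 subunits, held at the synapse by the scaffold gephyrin (Gphn) and the adhesion protein neuroligin-2 (Nlgn2), while GABA-B receptors signal through G proteins. The subunit mix sets where a GABA-A receptor sits and how long its current lasts. Granule cells of the cerebellum are known for receptors that contain the Gabra6 and Gabrd products and carry a steady background inhibition. Both transmitters enter vesicles through the Slc32a1 product and are cleared by the Slc6 family, with Slc6a5 on glycine neurons and Slc6a9 and Slc6a11 largely on glia.

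Library depth ran from 25295973 to 49027399 reads on genes. Levels are given as CPM, the usual scaling of counts to library size, here with TMM factors, and levels of different genes are compared only as CPM per kb of exon. Mbd5, the trapped gene, had a median of 67.95 CPM in cortex of WT mice and 45.8 CPM in cortex of Mbd5+/GT mice. For cortex, striatum and cerebellum its log2FC was -0.49, -0.51 and -0.34, each ± 0.05 (SE), with adjusted p of 0.00012, 9.41e-05 and 0.00912 in edgeR's quasi-likelihood test. The trapped gene was thus lower in the labelled group in each region. In bulk tissue, fewer cells of a type and less RNA per cell cannot be told apart.

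Some libraries carried markers of a region other than the labelled one, or few markers of their own, and this touched many of the 27 genes. In the cerebellum, the summed level of 16 hindbrain Hox genes was 63.5 to 514.5 CPM in 4 libraries and 0.0584 to 5.02 CPM in the other 14. The 4 libraries came from Mbd5+/GT mice M755 and M756 and WT mice M754 and M761. Library M755 also had the lowest sums of 9 granule cell markers (174 CPM, against 4216 to 6199 CPM in the 14 libraries) and of 7 Purkinje cell markers (200 CPM, against 6138 to 8413 CPM). In the striatum, 11 markers of striatal projection neurons summed to 506 to 3110 CPM in 6 libraries (WT M754 and M761, Mbd5+/GT M753, M755, M756 and M763) and to 4023 to 11190 CPM in the other 12. In the cortex, the same markers summed to 2056 to 3161 CPM in 5 libraries (WT M752, M759, M761 and M765, Mbd5+/GT M766) and to 456 to 1498 CPM in the other 13. By both lists library M755 went against its label of cerebellum, and the lowest striatum sum (506 CPM, M754) lay within the range of the 13 other cortex libraries. Whether the tissue or the label of such libraries differed was not tested. They are called mixed libraries here, set apart by Hox and striatal sums alone. In striatum, cortical excitatory markers of M755, M761 and M763 (1008, 508.5 and 706.5 CPM) lay within the range of the other 12 (58.16 to 1088 CPM). Those of M753, M754 and M756 lay above it. Thalamus markers were not used, and M758 was kept in striatum and cortex (770.8 and 251.0 CPM), as was striatum M762 (400.5 CPM). The fits of regions, of genotype and of its difference between regions were repeated without the 15 mixed libraries, a choice made after the data were seen. The permutation tests and the tests by sex were not.

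The first question was how the levels differed between regions. Of the 27 genes, 13 differed between cerebellum and cortex of WT mice, with 7 higher and 6 lower in the cerebellum, where a call required an adjusted p under 0.05 and at least a 2-fold difference. Over all 20477 genes tested 24.7% were called in that comparison, 8.97% higher and 15.7% lower. Between cerebellum and striatum 10 of 27 were called, 5 in each direction, against 30.1% of all genes, 12.8% higher and 17.3% lower. Between cortex and striatum 6 of 27 were called, 4 higher and 2 lower in cortex, against 10.5% of all genes, 6.15% higher and 4.4% lower. The median log2FC of the 27 genes was -0.21, -0.19 and 0.28 in these comparisons, beside 0.02, -0.02 and 0.00 over all genes. All 27 genes passed the low-count filter in this fit, Slc6a5 through the cerebellum libraries alone if each region is filtered by itself. Each library was treated as independent although every mouse gave 3 libraries. With mouse as a replicate block the called genes were 15, 10 and 6, and the 2 gained were Glra3 (log2FC = -2.17, adjusted p = 0.0139) and Slc6a11 (log2FC = -1.30, adjusted p = 0.000955) between cerebellum and cortex.

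**Figure D1:**
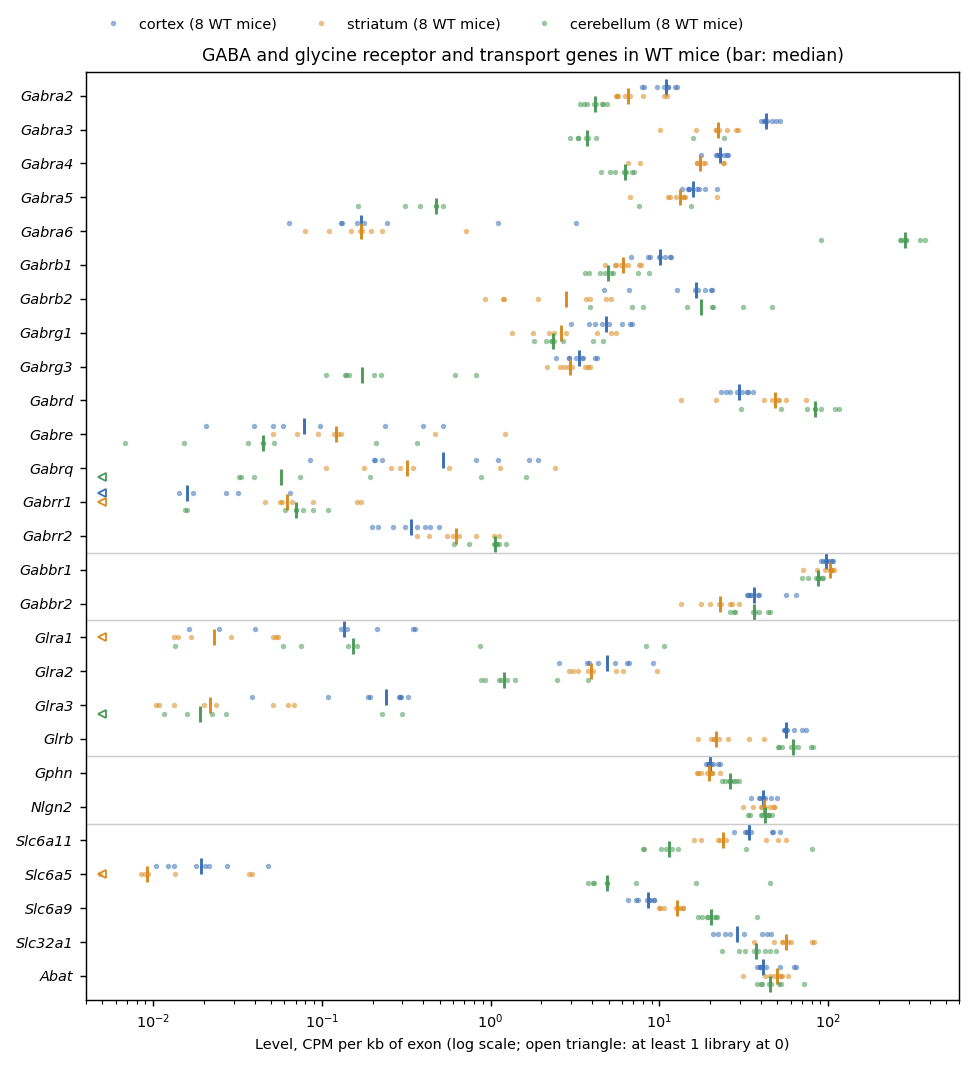
Level of each of the 27 genes in CPM per kb of exon (log axis) in the 8 WT mice, 1 point per library, a bar at the median, coloured by region; lines separate GABA-A, GABA-B and glycine receptors, scaffold and transport genes. Gabra6 has a median of 286 CPM per kb in cerebellum and 0.17 CPM per kb in both other regions, and Slc6a5 also separates cerebellum from both.

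The Gabra6 and Slc6a5 genes set the cerebellum apart most, the former among receptor subunits and the latter among transporters. Their upstream sequences are printed beside those of a relative that is expressed in all 3 regions, Gabra4 and Slc6a9. Each sequence is the 250 bases before the start site in RefSeq on GRCm38.p6, 5′ to 3′ on the strand of the gene, with CG dinucleotides in capitals. For genes with several starts the most upstream was taken. The positions are chr11:42321073-42321322 (minus strand) for Gabra6, chr5:71658309-71658558 (minus strand) for Gabra4, chr7:49910049-49910298 (plus strand) for Slc6a5 and chr4:117835008-117835257 (plus strand) for Slc6a9.
Gabra6: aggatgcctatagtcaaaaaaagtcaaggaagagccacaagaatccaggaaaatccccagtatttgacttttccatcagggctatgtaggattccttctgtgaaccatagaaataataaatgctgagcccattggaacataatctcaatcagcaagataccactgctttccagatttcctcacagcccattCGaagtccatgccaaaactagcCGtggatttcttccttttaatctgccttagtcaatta
Gabra4: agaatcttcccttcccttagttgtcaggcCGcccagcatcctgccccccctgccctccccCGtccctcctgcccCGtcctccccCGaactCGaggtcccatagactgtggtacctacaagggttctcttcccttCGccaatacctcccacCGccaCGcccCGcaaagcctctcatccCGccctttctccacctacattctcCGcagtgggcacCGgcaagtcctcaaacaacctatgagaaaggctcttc
Slc6a5: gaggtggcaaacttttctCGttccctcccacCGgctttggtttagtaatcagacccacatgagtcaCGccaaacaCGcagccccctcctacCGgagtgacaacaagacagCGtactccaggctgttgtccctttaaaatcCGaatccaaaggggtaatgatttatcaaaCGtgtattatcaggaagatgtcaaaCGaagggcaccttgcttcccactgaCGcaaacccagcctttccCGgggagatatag
Slc6a9: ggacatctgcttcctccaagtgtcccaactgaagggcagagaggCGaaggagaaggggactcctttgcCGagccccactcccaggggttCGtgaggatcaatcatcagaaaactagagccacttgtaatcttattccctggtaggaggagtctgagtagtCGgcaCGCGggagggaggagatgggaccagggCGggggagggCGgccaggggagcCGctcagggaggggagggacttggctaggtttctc
The Gabra6 window held 2 CG dinucleotides and a GC content of 40.8%, and 29.0% of all 32851 windows of the same length in the table held no more. The Gabra4 window held 12 CG and was 61.2% GC. The 2 transporter windows held 11 CG in Slc6a5 and 9 CG in Slc6a9, above the median of 6 for all windows. Of the 27 genes, 24 had a window in the table, with 31 start sites in all, and 5 of those 31 windows held 2 CG or fewer, at Gabra3 (2 starts), Gabra6, Gabrg1 and Gabrr2. Few CG was thus seen both at a gene read mainly in the cerebellum and at Gabra3, which was higher in cortex. The motif TTGGC, searched on both strands, occurred in the windows of Gabra6, Gabra4, Slc6a5 and Slc6a9 and in 41.5% of all windows. No promoter window for Gabrd, Glra1 or Abat was used here.

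Gabra6 encodes an alpha subunit found mainly in cerebellar granule cells. It lies on chromosome 11 at 42306437 to 42321072 on the minus strand of GRCm38, 98.7 kb from Gabrb2. In WT cerebellum it ranged from 225 to 934 CPM with a median of 712 CPM, in WT cortex from 0.16 to 7.94 CPM with a median of 0.423 CPM, and in WT striatum from 0.199 to 1.79 CPM with a median of 0.425 CPM. Every cerebellum library of WT mice lay above every library of the other regions, and the lowest one, M754, was among the libraries with Hox markers. The log2FC was 8.75 ± 0.82 against cortex (adjusted p = 3.03e-13) and 10.26 ± 0.89 against striatum (adjusted p = 2.07e-14). Per kb of exon Gabra6 had the highest median of the 27 genes in the cerebellum, 286 CPM per kb, although its range overlapped that of Gabbr1, next in order. Counts behind the cortex and striatum values were low, 366 and 133 reads summed over 8 libraries each.

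Gabrd, whose product joins Gabra6 in extrasynaptic receptors of granule cells and Gabra4 in those of the forebrain, was less restricted. Its lowest, median and highest levels were 87.1, 241 and 333 CPM in WT cerebellum, 67.1, 85.8 and 103 CPM in cortex, and 38.9, 139 and 212 CPM in striatum. It was higher in cerebellum than in cortex (log2FC = 1.44 ± 0.36, adjusted p = 0.00066), while the difference from striatum was 0.85 ± 0.36 and under 2-fold. The 3 ranges overlapped with all libraries. Without the mixed libraries they did not: 214.6 to 333.3 CPM in cerebellum, 67.1 to 103 CPM in cortex and 119.5 to 211.7 CPM in striatum. The cortex to striatum difference was then -0.90 ± 0.19 (adjusted p = 0.00028 by edgeR), under 2-fold, and -0.59 ± 0.36 with all.

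The other alpha subunit genes were higher in the forebrain. Gabra5, which encodes a largely extrasynaptic subunit, had a median of 47.3 CPM in WT cortex (40.8 to 65.3) and 1.42 CPM in WT cerebellum (0.485 to 45.6). The top of that cerebellum range again belonged to M754, and only M754 and M761 exceeded 2 CPM there. The log2FC against cortex was -2.39 ± 0.74 with all libraries and -5.50 ± 0.28 without the mixed libraries. Gabra3 had a similar pattern, with a median of 168 CPM in WT cortex (156 to 204), 87.3 CPM in striatum (39.6 to 115.5) and 14.6 CPM in cerebellum (11.6 to 94.3). Its log2FC between cerebellum and cortex was -2.55 ± 0.43 with all and -3.73 ± 0.20 without the mixed libraries, and its cortex to striatum difference was 1.02 ± 0.41 (adjusted p = 0.0367). Gabra4 differed by -1.93 ± 0.18 from cortex and by -1.47 ± 0.18 from striatum, with a WT median of 37.8 CPM in cerebellum, 139 CPM in cortex and 107 CPM in striatum. Gabra2 differed by -1.34 ± 0.15 from cortex (31.6 against 83.6 CPM at the medians) and by -0.85 ± 0.15 from striatum. The Gabra4 and Gabra2 ranges in cerebellum and cortex did not overlap.

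Among the gamma subunit genes, Gabrg3 was lower in the cerebellum than in cortex (log2FC = -3.48 ± 0.41, adjusted p = 2.15e-10) and striatum (log2FC = -3.36 ± 0.40, adjusted p = 4.25e-10). Its WT medians were 2.08 CPM in cerebellum, 39.9 CPM in cortex and 35.3 CPM in striatum, and all 8 cerebellum libraries were below all others. Gabrg3 lies 20.5 kb from Gabra5 on chromosome 7, and both were low in the cerebellum. Gabrg1, which is expressed in some glia as well as neurons, differed by under 2-fold in each comparison, with WT medians from 18.5 CPM in cerebellum to 37.8 CPM in cortex. On chromosome 5 it stands in a row with Gabra2, Gabra4 and Gabrb1. Gabra4 and Gabrb1 are divergent and share 46 bases of exon, and since the strand setting of the counting is not given in the sources used here, reads there cannot be assigned to one of the 2 genes.

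The beta subunit genes differed in their regional pattern. Gabrb2 was low in striatum, with 5.87, 17.9 and 32.7 CPM as lowest, median and highest WT values, against 30.1, 105 and 131 CPM in cortex and 24.6, 112 and 295 CPM in cerebellum. It was higher in cortex than striatum (log2FC = 2.36 ± 0.49, adjusted p = 0.000136) and higher in cerebellum than striatum (log2FC = 2.74 ± 0.50, adjusted p = 4.22e-06). Cerebellum and cortex did not pass the test (log2FC = 0.39 ± 0.46). Gabrb1 had WT medians of 68.6, 139 and 84.0 CPM in cerebellum, cortex and striatum, all differences under 2-fold. Gabrb2 varied widely within a region: among the 14 cerebellum libraries without Hox markers its highest level was 12.0 times its lowest, compared with 1.77 times for its neighbour Gabra6.

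The less common subunits had low levels in most libraries. Gabrr2, a rho subunit best known from retina, had WT medians of 2.25, 0.713 and 1.32 CPM in cerebellum, cortex and striatum. It was lower in cortex than in cerebellum (log2FC = 1.55 ± 0.31, cerebellum minus cortex) and than in striatum (log2FC = -1.04 ± 0.31, cortex minus striatum). Its neighbour on chromosome 4, Gabrr1, was called in the same 2 comparisons (log2FC = 1.58 ± 0.59 and -1.94 ± 0.58), but on 35, 11 and 46 reads summed over the 8 WT libraries of cerebellum, cortex and striatum. Gabre and Gabrq, which flank Gabra3 on the X chromosome, had WT medians of at most 0.574 and 2.8 CPM and were called in no comparison with all libraries. Without the mixed libraries Gabrq was lower in cerebellum than in cortex (log2FC = -3.14 ± 1.01, adjusted p = 0.00831) and striatum (log2FC = -2.82 ± 0.95, adjusted p = 0.00972).

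GABA-B receptors need both products, Gabbr1 for ligand binding and Gabbr2 for coupling to G proteins. Gabbr1 differed little between regions, with WT medians of 679.5, 757.7 and 798 CPM in cerebellum, cortex and striatum, and it had the highest median per kb in cortex and striatum, 97.6 and 103 CPM per kb. Its differences between regions were -0.21 ± 0.07, -0.19 ± 0.07 and 0.02 ± 0.07 on the log2 scale. Gabbr2 was lower in striatum, with a WT median of 153 CPM against 245 CPM in cortex and 244 CPM in cerebellum. The cortex to striatum difference was 0.90 ± 0.19 with all libraries, short of 2-fold, and 1.11 ± 0.22 without the mixed ones (adjusted p = 0.000147).

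Of the glycine receptor genes, Glrb had the highest WT median per kb of exon in each region, 61.6, 56.6 and 21.8 CPM per kb in cerebellum, cortex and striatum, against at most 4.89 CPM per kb for the 3 alpha genes. It encodes the beta subunit that binds gephyrin. Its WT levels were 236, 287 and 380 CPM in cerebellum, 254, 264 and 344 CPM in cortex, and 79.0, 101 and 193 CPM in striatum, given as lowest, median and highest. No striatum library of WT mice reached the lowest of the other regions. Glrb was higher than in striatum in cerebellum (log2FC = 1.32 ± 0.15, adjusted p = 1.45e-10) and in cortex (log2FC = 1.26 ± 0.15, adjusted p = 2.65e-08). In Mbd5+/GT mice these differences were 0.80 ± 0.14 and 0.71 ± 0.14, with adjusted p of 1.19e-06 and 0.000104, under 2-fold.

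Glra2, an alpha subunit abundant in development, was lower in cerebellum (WT median 3.77 CPM) than in cortex (15.4 CPM, log2FC = -1.70 ± 0.32) and striatum (12.4 CPM, log2FC = -1.56 ± 0.32). Glra3 had a WT median of 2.21 CPM in cortex and 0.2 CPM in striatum (log2FC = 2.71 ± 0.76, adjusted p = 0.00323). Its cerebellum to striatum difference turned from 1.23 ± 0.77 with all libraries to -1.56 ± 0.71 without the mixed ones, and passed the test in neither. Glra1, the main alpha subunit of adult brainstem and spinal cord, was called higher in cerebellum than in cortex (log2FC = 3.98 ± 1.11, adjusted p = 0.00188) and striatum (log2FC = 6.36 ± 1.33, adjusted p = 4.65e-05). Those calls rested on a few libraries. In WT cerebellum Glra1 was 25.7 CPM in M754, 20.0 CPM in M761 and 2.09 CPM in M762, and 0.0323 to 0.39 CPM in the other 5. Without the mixed libraries the difference from cortex was 1.06 ± 0.93 (adjusted p = 0.351) and that from striatum 2.90 ± 0.97 (adjusted p = 0.00865).

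Neither scaffold gene was called. Gphn had WT medians of 99.0, 75.1 and 73.9 CPM in cerebellum, cortex and striatum, and its cerebellum differed from both by 0.37 ± 0.06 and 0.46 ± 0.06 on the log2 scale. Nlgn2, which organises inhibitory synapses, had medians of 244, 238 and 241 CPM, and its differences of -0.03, -0.02 and 0.01, each ± 0.09, lay within their error.

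Slc6a5 encodes the neuronal glycine transporter that refills glycine terminals. In WT cerebellum it ranged from 27.4 to 326 CPM with a median of 35.4 CPM, in cortex from 0.0754 to 0.347 CPM and in striatum from 0 to 0.278 CPM, on 36 and 27 reads summed over 8 libraries in each forebrain region. The log2FC was 9.02 ± 0.72 against cortex and 9.46 ± 0.75 against striatum, and 8.10 ± 0.42 and 8.46 ± 0.36 without the mixed libraries. The 14 cerebellum libraries with little Hox signal still ranged from 23.1 to 52.5 CPM, all above the forebrain. Slc6a9, the other glycine transporter, was present in all regions, with WT medians of 104, 44.1 and 65.3 CPM, and was higher in cerebellum than in cortex (log2FC = 1.42 ± 0.18, adjusted p = 1.01e-09). Its exons overlap Ccdc24 on the other strand by 1429 bases, and as the strand setting is not given, how reads there were counted is not known. Slc32a1, the vesicular transporter of both transmitters, was highest in striatum (WT median 157 CPM, against 104 CPM in cerebellum and 81.0 CPM in cortex), and the cortex to striatum difference was -0.89 ± 0.21 with all and -1.26 ± 0.22 without the mixed libraries. The same limit holds for its exons, which share 697 bases with Gm14205 on the other strand. Slc6a11, an astrocyte GABA transporter, was called in no comparison with all libraries but was lower in cerebellum without the mixed ones (log2FC = -1.86 ± 0.27 against cortex and -1.24 ± 0.25 against striatum). Abat, which degrades GABA, had medians of 349, 321 and 384 CPM and passed the test in no comparison with all libraries. Without the mixed ones its cortex to striatum difference was -0.35 ± 0.15 (adjusted p = 0.0498 by edgeR), under 2-fold.

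**Figure D2:**
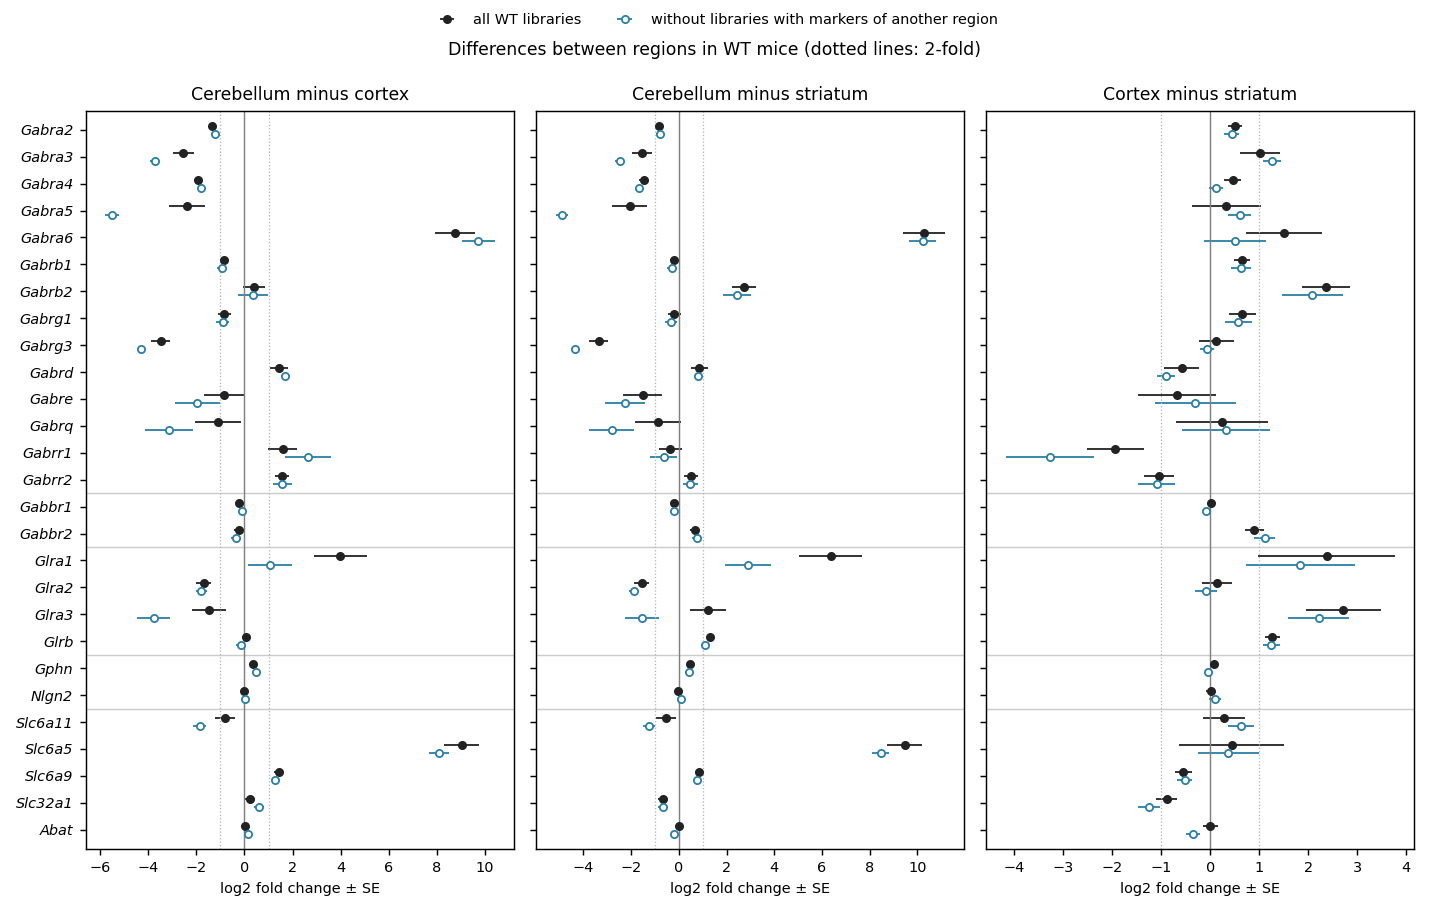
log2 fold change ± SE between regions of WT mice for the 27 genes, with all libraries (filled) and without the mixed libraries (open). The legend names the latter as libraries with markers of another region. Dotted lines mark 2-fold. Glra1 moves from 3.98 to 1.06 and Gabra5 from -2.39 to -5.50 between cerebellum and cortex.

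Without the mixed libraries the counts of called genes were 15, 13 and 8 of 27 for cerebellum against cortex, cerebellum against striatum and cortex against striatum, beside 26.2%, 31.8% and 11.6% of all genes. In Mbd5+/GT mice they were 13, 10 and 1 of 27, beside 24.8%, 27.4% and 6.4% of all genes. The single gene called between cortex and striatum in Mbd5+/GT mice was Gabrb2 (log2FC = 1.50 ± 0.43, adjusted p = 0.00569). The striatum of Mbd5+/GT mice held 4 of the 6 libraries low in striatal markers.

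The 4 cerebellum libraries with Hox markers shared a pattern across the 27 genes. In all 4, 11 genes lay above the whole range of the other 14 libraries: Gabra3, Gabra5, Gabrg1, Gabrg3, Gabrq, Glra1, Glra2, Glra3, Glrb, Slc6a11 and Slc6a5. No gene lay below that range in all 4. In M755, which had the highest Hox sum, 16 genes were above the range, 9 below and 2 within. There Gabra6 was 1.755 CPM and Gabrd 2.57 CPM, against lowest values of 539 and 205 CPM among the 14. Slc6a5 was 430, 326, 118 and 94.3 CPM in M755, M754, M761 and M756, and at most 52.5 CPM in the others. Glra1 followed with 35.3, 25.7, 20.0 and 8.12 CPM in the same libraries. The order of the 4 libraries by Hox sum was M755 (514.5 CPM), M754 (168 CPM), M761 (65.1 CPM) and M756 (63.5 CPM). Slc6a5 and Glra1 had the same order, whereas Gabra6 had the reverse order, with 225, 660 and 721 CPM in M754, M761 and M756. As the libraries fell into separate clusters by Hox sum, no correlation was computed.

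**Figure D3:**
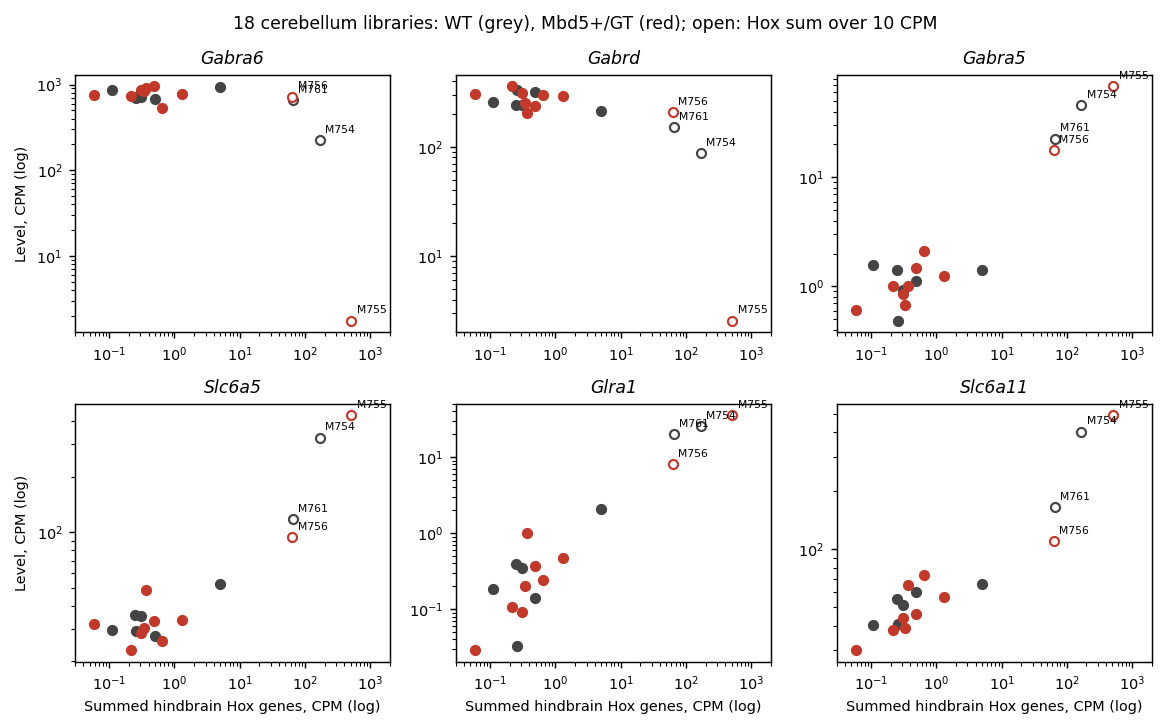
Level of 6 genes in CPM against the summed level of 16 hindbrain Hox genes in CPM (both log axes) in the 18 cerebellum libraries, WT in grey and Mbd5+/GT in red, with the 4 libraries over 10 CPM of Hox drawn open. Gabra6 and Gabrd fall to 1.755 and 2.57 CPM in M755, where Slc6a5 and Glra1 reach 430 and 35.3 CPM.

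Further genes of inhibitory transmission were taken from a list of 32, of which 31 were in the table: synthesis and breakdown of both transmitters, chloride carriers, receptor auxiliary and trafficking proteins. Between cerebellum and cortex of WT mice 9 of 31 were called, 4 higher and 5 lower in cerebellum, beside 24.7% of all genes. Between cerebellum and striatum 8 were called, 5 higher and 3 lower, beside 30.1% of all genes, and between cortex and striatum 2, both higher in cortex, beside 10.5% of all genes. The largest differences were those of Kctd16, an auxiliary subunit of GABA-B receptors (log2FC = -3.54 ± 0.41 between cerebellum and cortex, WT medians 0.43 and 5.67 CPM), Shisa7, an auxiliary protein of GABA-A receptors (-3.53 ± 0.18, 17.8 and 219 CPM), and Slc6a12, a betaine and GABA transporter (3.06 ± 0.39 between cerebellum and striatum, 4.75 and 0.416 CPM). The GABA-B auxiliary genes did not share a direction, since Kctd8 (log2FC = 1.62 ± 0.20) and Kctd12 (log2FC = 1.43 ± 0.26) were higher in cerebellum than in cortex. Gad1, which makes most GABA, differed by under 2-fold everywhere, with WT medians of 532, 454 and 470 CPM in cerebellum, cortex and striatum.

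The second question was whether the trapped allele altered these genes. No gene of the 27 passed an adjusted p of 0.05 between Mbd5+/GT and WT mice in any region by edgeR or by DESeq2, beside 0.0107%, 0.00539% and 0.00551% of all genes by edgeR in cortex, striatum and cerebellum (2, 1 and 1 genes). DESeq2 gave 62, 3 and 3 genes over the whole table. In cortex 25 were tested, with Gabrr1 and Slc6a5 below the filter, and 5 had an unadjusted p under 0.05, all lower in Mbd5+/GT mice. Over all genes 8.47% had such a p, 4.51% in the lower direction. In striatum 25 were tested, without Glra1 and Slc6a5, and 3 had an unadjusted p under 0.05, all higher in Mbd5+/GT mice, against 7.44% of all genes and 4.24% in the higher direction. In cerebellum 27 were tested and none had, against 2.75% of all genes. The lowest adjusted p of the 27 were 0.436, 0.629 and 1 in cortex, striatum and cerebellum, and the median log2FC were -0.01, 0.05 and -0.01.

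In cortex, Gabrd was 55.85, 71.2 and 100 CPM as lowest, median and highest in Mbd5+/GT mice and 67.1, 85.8 and 103 CPM in WT mice (log2FC = -0.19 ± 0.06, adjusted p = 0.436). Gabra4 was 98.5, 121 and 151 CPM in Mbd5+/GT and 108, 139 and 156 CPM in WT mice (log2FC = -0.15 ± 0.05, adjusted p = 0.436). For both genes the groups overlapped over most of their range. Gabrg3 had medians of 34.95 and 39.9 CPM (log2FC = -0.13 ± 0.06), and Gabra2 of 76.7 and 83.6 CPM (log2FC = -0.10 ± 0.05). Gphn, the gephyrin gene, had medians of 73.2 and 75.1 CPM (log2FC = -0.09 ± 0.04). All 10 Mbd5+/GT libraries lay below the WT mean of 76.9 CPM, but so did WT libraries M751, M754, M757, M761 and M762 (70.86 to 76.01 CPM). The WT libraries above that mean, M752, M759 and M765 (78.45 to 85.34 CPM), were mixed libraries. By an exact two-sided permutation test of the log2 levels over all 43758 splits of the 18 mice, without the adjustment for hidden factors, the unadjusted p were 0.22 for Gabrd, 0.051 for Gabra4, 0.11 for Gabrg3, 0.25 for Gabra2 and 0.022 for Gphn. Over the 3500 splits that kept the litters, Gphn had an exact p of 0.016. When the model held litter and sex instead of the hidden factors, 0 of the 27 genes had an unadjusted p under 0.05 in cortex, beside 4.11% of all genes, and with neither 1 had, beside 3.43%.

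Sums of striatal markers in the cortex libraries overlapped between the genotypes but had a higher median in WT mice, a difference that was not tested. The 11 markers summed to 456, 1936 and 3161 CPM in WT cortex and to 531, 961 and 2056 CPM in Mbd5+/GT cortex, and 4 of the 5 mixed cortex libraries were WT. Without those 5 the log2FC were -0.02 for Gabrd, -0.05 for Gabra4, -0.11 for Gabrg3, 0.02 for Gabra2 and -0.00 for Gphn, with unadjusted p from 0.0725 to 0.969. In that fit 2 other genes had an unadjusted p under 0.05, Gabrq (log2FC = -0.50 ± 0.19) and Gabra3 (log2FC = -0.15 ± 0.07), both with an adjusted p of 1, beside 2.52% of all genes. The Gabrq levels, before the adjustment for hidden factors, were not lower in Mbd5+/GT mice. Their median was 1.589 CPM (0.8433 to 26.13) in the 9 kept Mbd5+/GT libraries and 1.102 CPM (0.4548 to 9.002) in the 4 kept WT ones. Of the list of further genes, 6 of 31 had an unadjusted p under 0.05 in cortex with all libraries, beside 8.47% of all genes, and none an adjusted p under 0.05. They were Kctd12 (log2FC = -0.38 ± 0.12), Gad2, which makes GABA at terminals (-0.28 ± 0.12), Kctd16 (-0.19 ± 0.09), the synaptic proteins Insyn1 (-0.14 ± 0.06) and Plcl2 (-0.13 ± 0.05), and Amt of the glycine cleavage system (0.12 ± 0.04). Without the mixed libraries Kctd12 was at -0.26 ± 0.17, Gad2 at -0.13 ± 0.14, Kctd16 at -0.25 ± 0.13, Insyn1 at -0.06 ± 0.05 and Plcl2 at -0.08 ± 0.06, none with an unadjusted p under 0.05, and Amt at 0.15 ± 0.07, with one. The WT median of Gad2 was 260 CPM with all 8 libraries and 203 CPM in the 4 kept, and the Mbd5+/GT median of the 9 kept was 200.2 CPM.

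**Figure D4:**
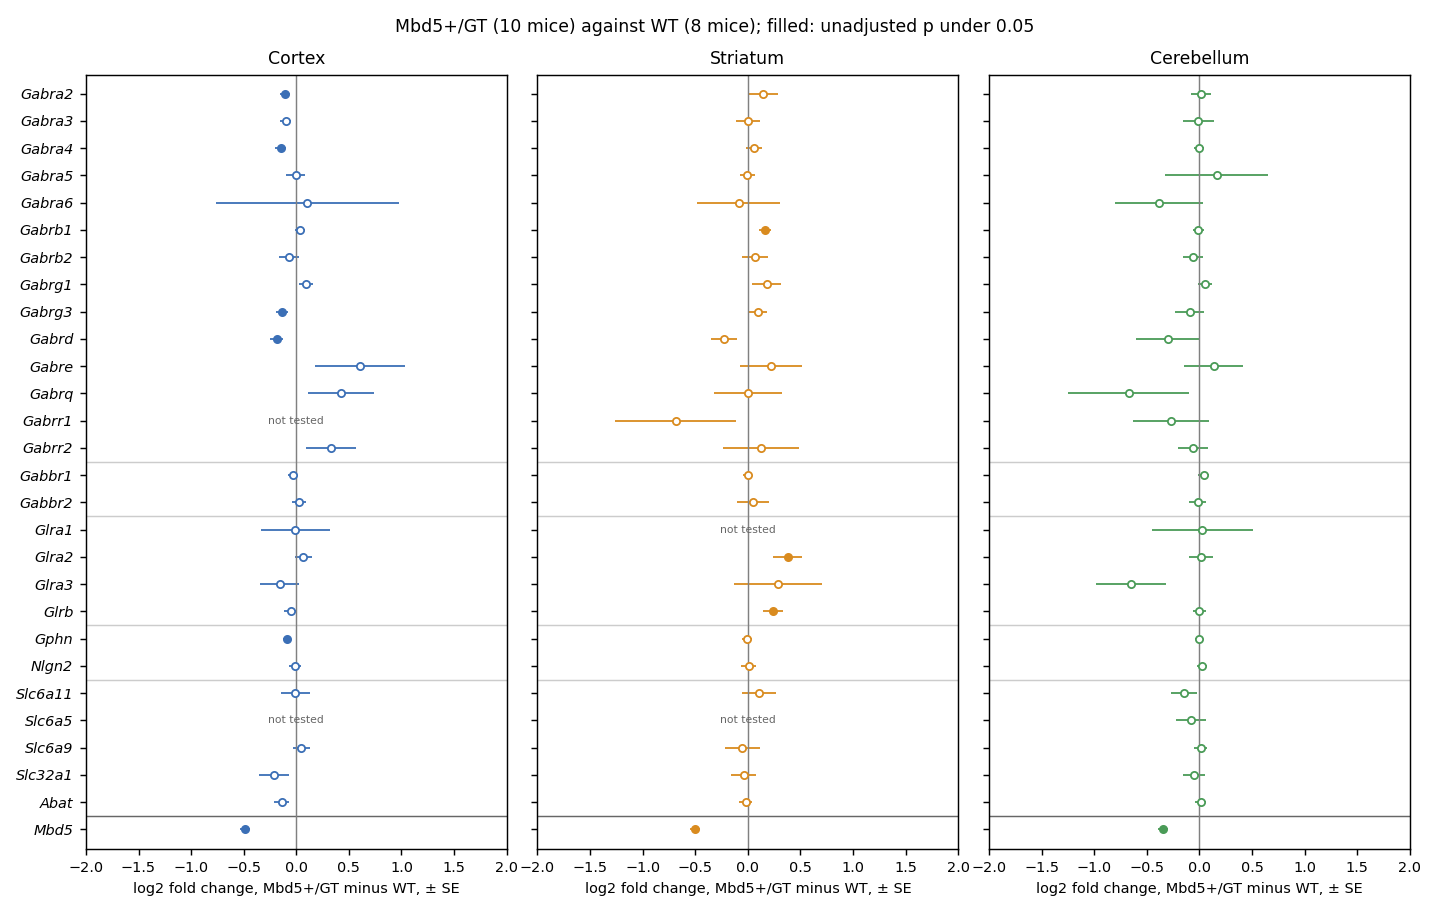
log2 fold change ± SE of Mbd5+/GT against WT mice for the 27 genes and Mbd5 in each region, 10 against 8 mice, filled where the unadjusted p was under 0.05. The 5 filled genes in cortex lie left of 0 and the 3 in striatum right of it, all nearer to 0 than Mbd5 at -0.49 and -0.51.

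In striatum, Glra2 was 11.9, 15.6 and 32.0 CPM in Mbd5+/GT and 9.14, 12.4 and 30.5 CPM in WT mice (log2FC = 0.38 ± 0.14, adjusted p = 0.629). Glrb was 106.5, 163.5 and 236 CPM in Mbd5+/GT and 79.0, 101 and 193 CPM in WT mice (log2FC = 0.24 ± 0.10, adjusted p = 0.63). Gabrb1 had medians of 96.2 and 84.0 CPM (log2FC = 0.16 ± 0.06, adjusted p = 0.629). The groups overlapped for each. For Glra2 the highest libraries of both groups, M763 and M761, were low in striatal markers. The next genes by p were Gabrd (log2FC = -0.23 ± 0.12) and Gabrg1 (log2FC = 0.18 ± 0.14). The exact two-sided permutation p over 43758 splits were 0.27 for Glra2, 0.027 for Glrb and 0.11 for Gabrb1, and 0.11, 0.034 and 0.013 over the 3500 splits within litters. Striatal markers summed to 506, 5516 and 10910 CPM in WT and 2052, 4369 and 11190 CPM in Mbd5+/GT striatum. Without the 6 mixed libraries none of the 27 genes had an unadjusted p under 0.05, beside 2.64% of all genes, and the log2FC were 0.02 for Glra2, 0.11 for Glrb and 0.06 for Gabrb1. None of the 31 further genes had an unadjusted p under 0.05 in striatum or cerebellum.

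**Figure D5:**
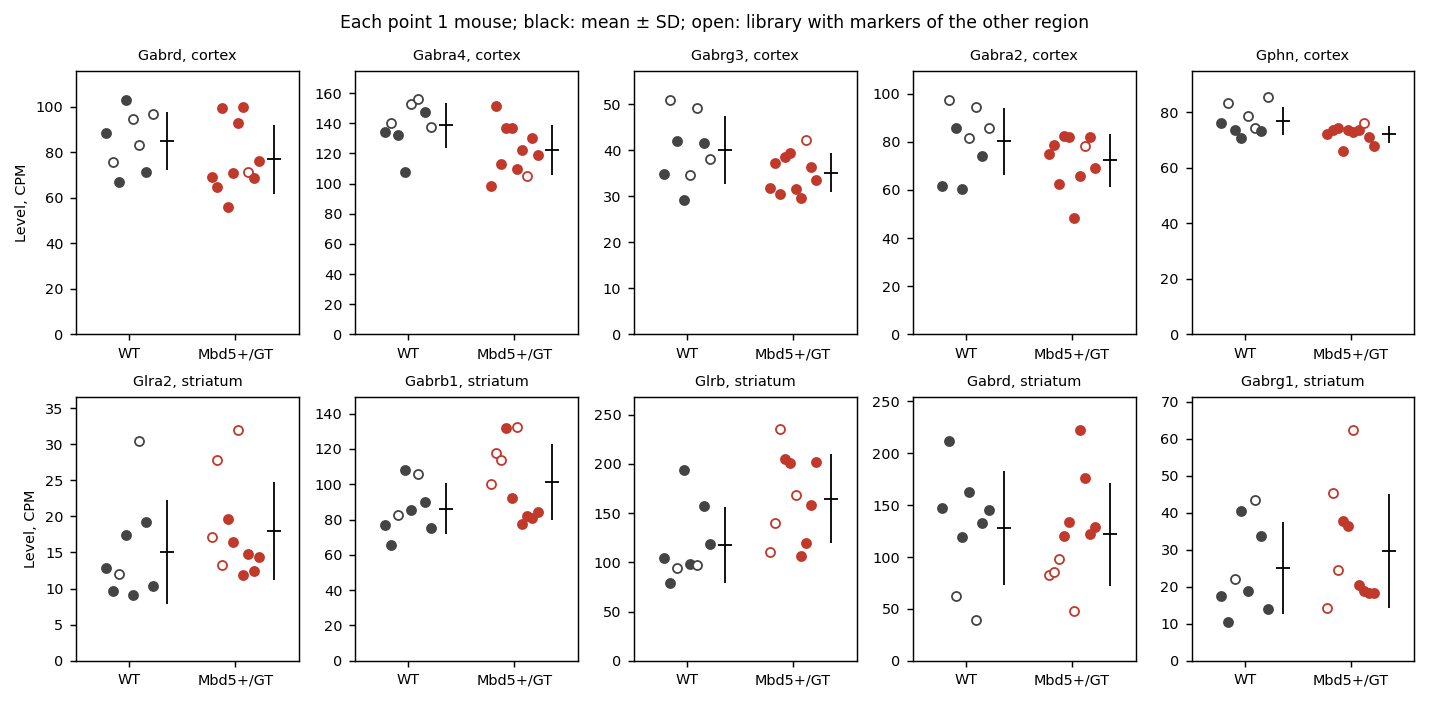
Level in CPM of the 5 genes with the smallest p in cortex (top) and striatum (bottom), 1 point per mouse, 8 WT and 10 Mbd5+/GT, with mean ± SD in black. Open points are mixed libraries, high in striatal markers in cortex and low in them in striatum. The groups overlap in every panel, and open points are mostly WT in cortex (4 of 5) and mostly Mbd5+/GT in striatum (4 of 6).

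In cerebellum the 5 genes with the smallest p were Glra3 (log2FC = -0.65 ± 0.33), Slc6a11 (-0.15), Gabrq (-0.67), Gabrd (-0.30) and Gabra6 (-0.38), with unadjusted p of at least 0.0626. The sign of the Gabrd and Gabra6 values depended on library M755, on the adjustment for hidden factors and on the measure. In the edgeR fit without that adjustment both were positive with M755 kept. The differences of mean log2 levels, also without it and with M755, were -0.34 and -0.601. Without M755 the edgeR fit with the adjustment gave 0.05 and 0.04. The Gabra6 medians were 766.6 CPM in all 10 Mbd5+/GT and 712 CPM in the 8 WT libraries. The exact two-sided permutation p for these 5 genes were 0.55 to 0.95.

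The difference in genotype effect between regions was tested directly. By edgeR none of the 27 passed an adjusted p of 0.05, and neither did any of the 20477 genes tested, of which 4.22%, 1.11% and 2.68% had an unadjusted p under 0.05 for cortex minus striatum, cortex minus cerebellum and striatum minus cerebellum. Glrb had an unadjusted p under 0.05 in the 2 comparisons with striatum (cortex minus striatum, -0.55 ± 0.20, p = 0.0088 by edgeR; striatum minus cerebellum, 0.52 ± 0.20, p = 0.0121 by edgeR), which share the striatum libraries. Gabra4 had one for cortex minus striatum (-0.49 ± 0.23, p = 0.0419 by edgeR). Without library M755 the cortex minus cerebellum comparison had 3 genes with an unadjusted p under 0.05 in place of 0, which were Glra3, Gabra5 and Slc6a11 (2.9% of all genes). The striatum minus cerebellum comparison had 7 in place of 1 (5.83% of all genes), and without all 15 mixed libraries 0 (1.58% of all genes). Between females and males the genotype effect had an unadjusted p under 0.05 for Gabrr1 in cerebellum (females minus males, -1.54 ± 0.70) and Gabra2 in striatum (-0.52 ± 0.24) and for no gene of the 27 in cortex, beside 0.54%, 1.62% and 1.3% of all genes in cerebellum, striatum and cortex. No gene passed the adjusted threshold in the tests by sex. Litter 1 held only females and litter 2 only males, and the fit had no litter term, so sex cannot be fully told apart from litter. Gabrr1 had 1 to 7 reads in each cerebellum library.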

How the data were processed

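The authors deposited raw counts, 1 integer for each gene and library, made with STAR (2.4.2 in the submitters' processing notes, which also name FastQC 0.10.1) on GRCm38 with its GeneCounts option, in polyA libraries. The strand column kept is not given in the sources used here. The 92 spike-ins (0.0207% to 0.728% of reads) were left out. All sample columns were used. Depth was 25295973 to 49027399 reads a library. The labels mark 2 striatum libraries of WT mice as repeated.

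The filter kept a gene counted over 4 times in 8 or more libraries. Genotype was tested per region with edgeR 4.0.16 (TMM, robust quasi-likelihood, Benjamini-Hochberg over all genes) with 4, 4 and 2 surrogate variables (sva 3.50.0) in cortex, striatum and cerebellum. Regions, their interaction with genotype, and sex were tested without surrogate variables, the first 2 in 1 fit of 54 libraries. Standard errors follow from the test statistic. Mouse numbers mark the same animal in each region: deviations correlated by a median of 0.164, 0.0911 and 0.0618 between regions of the same mouse and by about -0.01 between mice, so mouse was also fitted as a replicate block. Within a region, p-values measure the spread between mice, for genotype after the surrogate variables. In the fit of 54 libraries they measure the spread between libraries of a group, with the libraries of 1 mouse counted as independent. Alternatives included DESeq2 1.42.0, other size factors and filters, litter and sex as covariates, and left-out libraries. Fits were tested on simulated data. Positions and exon lengths came from GENCODE on GRCm38, and promoter sequences from RefSeq (GRCm38.p6).

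The genes, the list of further genes and the marker lists (Hox, granule cell, Purkinje cell, striatal) were chosen with earlier results of these data known. Named for genotype were the genes with an unadjusted p under 0.05, or the 5 smallest p. Named for regions was every gene called, with the others by their medians. From the list of further genes, those with an unadjusted p under 0.05 for genotype and the 3 with the largest difference were named. Kctd8, Kctd12 and Gad1 were added after their values were seen.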

Additional observations from a re-analysis of the deposited data

Results flagged for a closer look

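A library was singled out where its gap to the next value was large against the range of its group. This held in 33 of 162 groups of 1 gene, region and genotype, and chance gives about 1 in 20. Library M755 of Mbd5+/GT cerebellum, with the highest Hox sum, was involved in 15. It had the highest level of Gabra3 (146.9 CPM), Gabra5 (68.32 CPM), Gabrg1 (39.02 CPM), Gabrg3 (18.83 CPM), Gabre (3.009 CPM), Gabrq (13.6 CPM), Glra1 (35.32 CPM), Glra2 (13.6 CPM), Glra3 (2.633 CPM), Slc6a11 (489.3 CPM), Slc6a5 (429.8 CPM), Slc6a9 (273.2 CPM) and Abat (653.6 CPM). It had the lowest level of Gabra6 (1.755 CPM) and Gabrd (2.57 CPM). In WT cerebellum, M754 with the next Hox sum was highest for Slc6a11 (404.1 CPM), Slc6a5 (325.8 CPM), Slc6a9 (195.5 CPM) and Abat (556.8 CPM), and lowest for Gabra6 (225.2 CPM).

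In Mbd5+/GT cortex, M758 was highest for Gabrg1 (71.63 CPM), Gabre (5.122 CPM) and Gabrq (26.13 CPM). This library also had the highest sums of thalamus (251.0 CPM) and hypothalamus markers (135.1 CPM) in cortex, and their part in these levels was not tested. Gabra6 was highest in WT M759 (7.943 CPM) and Mbd5+/GT M766 (7.0 CPM) of cortex, Slc6a5 in WT M759 (0.3468 CPM) and Gabrr2 in Mbd5+/GT M763 (2.165 CPM). In WT striatum, M761, where striatal markers summed to 1025 CPM, was highest for Gabre (5.799 CPM), Gabrq (12.86 CPM) and Glra2 (30.49 CPM), and M757 was highest for Gabra6 (1.788 CPM). In Mbd5+/GT striatum, Gabra2 was lowest in M753 (40.95 CPM) and Glra1 highest in M758 (0.9013 CPM).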

How the results depend on the processing

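Of 118 counts of genes under an alternative, 98 stayed within 1.5 times the reported count. For genotype, the count of 5 genes with an unadjusted p under 0.05 in cortex became 0 with litter and sex as covariates and 1 with no surrogate variables. Without the mixed libraries it became 2, Gabrq and Gabra3, neither of them among the 5. The count of 3 in striatum became 1 with no surrogate variables, 0 without the mixed libraries and 1 without litter 2. In cerebellum 0 became 1 without litter 2, which was Glra3 (log2FC = -0.82). Between cortex and striatum of WT mice the 6 called genes became 3 with at least 10 counts in every library and 1 in Mbd5+/GT mice. For the effect between regions, cortex minus striatum fell from 2 genes to 1 with at least 10 counts and to 1 without litter 2, cortex minus cerebellum went from 0 to 3 without M755, and striatum minus cerebellum went from 1 to 0 without the mixed libraries, 0 without the repeated libraries and 7 without M755. For sex, the 1 gene in cerebellum became 0 with at least 10 counts and 0 by DESeq2, the 0 in cortex became 1 by DESeq2, and the 1 in striatum became 0 with at least 10 counts and 0 with DESeq2 size factors. With mouse as a replicate block the called genes were 15, 10 and 6 for the region pairs and 2, 0 and 1 for the effect between regions, and beyond Glra3 and Slc6a11 no call between regions changed.

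Of single genes, 348 values kept direction and side of the threshold, 48 fell short of it, 1 passed it and 10 turned sign. The sign turned for Gabra2 in cortex (0.0235), Gabrd (0.0369) and Gabrg1 (-0.131) in striatum, and Gabrd (0.0379) and Gabra6 (0.0277) in cerebellum without the mixed libraries. It also turned for Gabrg1 in striatum without litter 2 (-0.0255), and in cerebellum for Gabrd and Gabra6 with no surrogate variables (0.0870 and 0.0329) and without M755 (0.0455 and 0.0407). The cause was not tested. Low counts limit Gabrr1, Gabre, Glra1, Glra3 and forebrain Slc6a5.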

Other observations

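Gabrb2 varied widely within the cerebellum, an item chosen after its values were seen. Among the 14 libraries without Hox markers it was highest in WT M762 (295 CPM) and Mbd5+/GT M763 (283 CPM) and lowest in WT M759 (24.6 CPM) and Mbd5+/GT M758 (27.9 CPM). In the same 4 libraries Gabra6 was 934, 905.5, 677 and 539 CPM. Over the 14 libraries the highest level was 12.0 times the lowest for Gabrb2, 1.3 times for Gabbr1, 1.29 times for Nlgn2 and 1.24 times for Gphn. It was larger still for genes of very low level, 71.5 times for Glra1 and 14.6 times for Gabre. In striatum without mixed libraries the ratio was 9.73 for Gabrb2, and in cortex 4.34.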
